A study of Homo sapiens with 6 samples.

Results

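Genes of 5 related families were followed in sorted human breast cancer cells: the matrix metalloproteinases (MMPs), the disintegrin metalloproteinases (ADAMs), the ADAMTS enzymes, their ADAMTS-like relatives, and the tissue inhibitors of metalloproteinases (TIMPs). The rule that chose them uses only the symbol, and 42 of the 15024 genes in the deposited table carried such a symbol. The families themselves were chosen with earlier results of these data known. These were 12 MMPs, 12 ADAMs, 10 ADAMTS genes, 4 ADAMTS-like genes and 4 TIMPs. The cells were MDA-MB-231, an established triple-negative breast cancer line with a mesenchymal appearance. All of them carried the guide labelled sgNT, by its name a non-targeting control, and all were treated with forskolin, an adenylyl cyclase activator that raises cAMP and protein kinase A activity, at 10 µM over 14 days. They were then sorted on surface CD44 and on CD104, the integrin beta4 chain encoded by ITGB4, into CD44+CD104high cells, which the study calls hybrid EMT cells, and CD44+CD104-/low cells, which it calls mesenchymal. Each sort gate gave 3 libraries, named here CD104high 1 to 3 and CD104low 1 to 3. Both groups had received forskolin, so the comparison is between sort gates and not between treated and untreated cells. The cells are a single line, and the MLL3-mutant cells of the study design were not analysed here.

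As background, MMPs and ADAMTS enzymes are zinc proteases that cut components of the extracellular matrix, while ADAMs mainly release the outer parts of membrane proteins, a step called shedding. Most are made with an inhibitory propeptide that proprotein convertases such as furin or other proteases remove. TIMPs bind the active site of these enzymes, with preferences that differ between the inhibitors. ADAMTS-like proteins share the accessory domains of ADAMTS enzymes, lack the protease domain and bind microfibrils and other matrix components. In breast carcinoma, MMPs and ADAMs have been studied in invasion and in the release of epidermal growth factor receptor ligands.

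The unit throughout is the normalised read count, which is the number of reads of a gene divided by a size factor of its library. Each library held between 52088604 and 56958065 recovered reads. ITGB4, the gene behind the sort, averaged 17659 ± 1766 in CD104high cells and 3079 ± 743 in CD104low cells (SD, n = 3 each), as the gates require. All 8 genes of the marker list for the line were measured. Of the leukocyte list only CD14 and CD79A were measured, and their summed count was 545 to 591 in CD104high libraries and 248 to 276 in CD104low libraries. The epithelial list, without CDH1 and GRHL2, summed to 110229 to 113797 in CD104high libraries and 91056 to 106325 in CD104low libraries. Of its 6 tested genes only KRT19 was called higher (adjusted p = 0.00194 in limma), against 12.1% of all tested genes. KRT8, with the largest count, KRT18 and EPCAM were not called. CLDN4 and ESRP1, also not called, had log2 fold changes of -0.12 and -0.20. The fibroblast or mural list summed to 4031 to 5773 in CD104high libraries and 3032 to 4488 in CD104low libraries. Of its genes, LUM (adjusted p = 0.0591, or 0.000413 with the replicate number as a block) and PDGFRB (0.128, or 0.00102) were higher with the block and COL3A1 (0.0533, or 0.00852) lower. The part of any of these marker lists in the results was not tested. In bulk libraries of sorted cells, fewer cells that express a gene and less RNA per cell cannot be told apart.

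Genes of these families were more often higher than lower in CD104high cells. Of the 42 genes, 39 passed the filter on low values, and 16 of them were called higher and 1, ADAM19, lower at an adjusted p under 0.05 in limma. The other 22 were not called, and 23.4% of all tested genes were called in either direction. The 16 genes are 41.0% of those tested, against 12.1% of all 14343 tested genes called higher, and the 1 gene is 2.56%, against 11.3% of all tested genes called lower. The median log2 fold change was 0.39 over the 39 genes and 0.0089 over all tested genes. The 3 genes left out by the filter were MMP23A, ADAM32 and ADAM21, with counts between 2.06 and 13.8 in every library. All 4 TIMPs were called higher, with 3 of 4 ADAMTS-like genes, 4 of 11 MMPs, 3 of 10 ADAMs and 2 of 10 ADAMTS genes. Folds of the genes called higher ran from 1.22 for TIMP1 to 4.28 for MMP8, and 7 of them had a log2 fold change of at least 1, which 2.32% of all tested genes reached with a call.

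**Figure D1:**
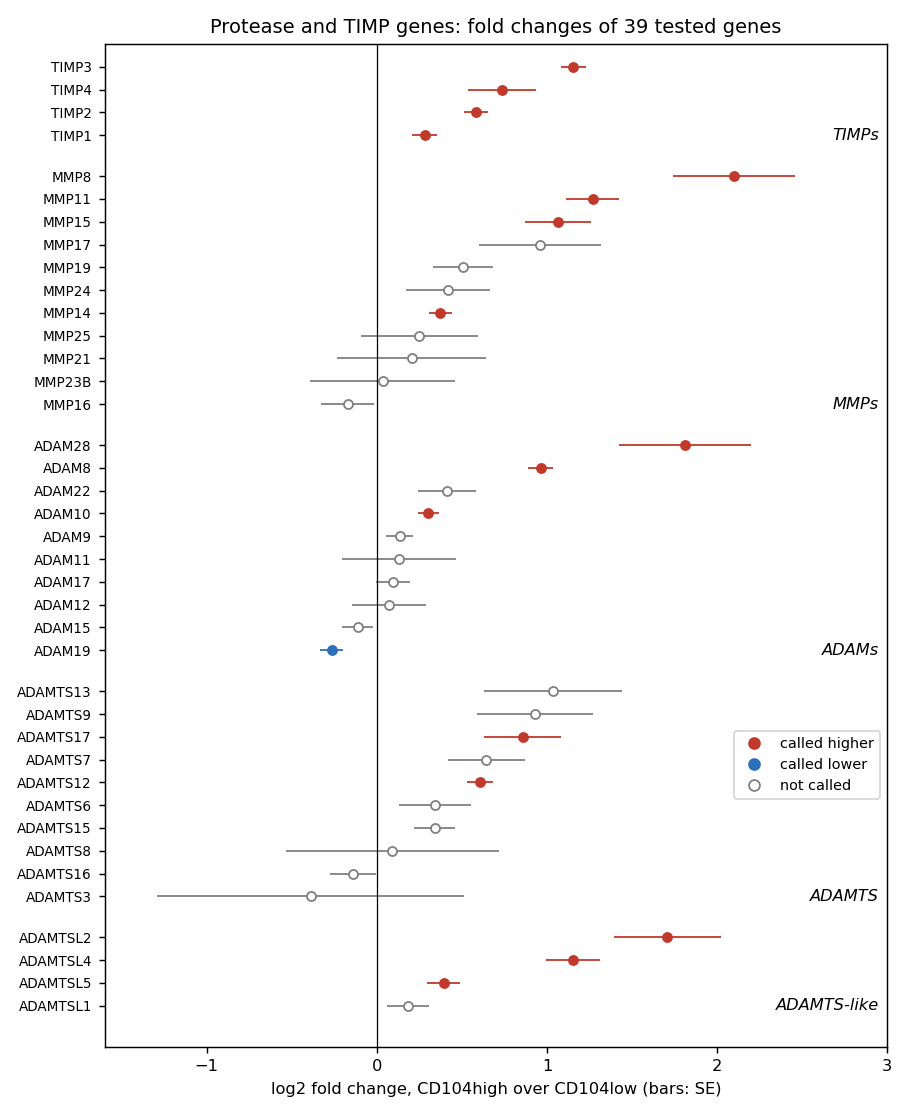
Log2 fold change of CD104high over CD104low on the log2(value + 1) scale (x axis) for the 39 tested genes, grouped by family, with the SE as bars; red and blue filled points were called higher and lower in limma, open points were not called. The 16 red points lie right of 0 and the only blue point is ADAM19.

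In 21 of the 39 tested genes every CD104high library lay above every CD104low library, against 19.9% of all tested genes, and in 1 gene every CD104high library lay below, against 21.3%. Libraries of the same replicate number resembled each other in these data, most clearly those numbered 3 and least clearly those numbered 1. With the number as a block, 22 of the 39 genes were called higher, against 17.4% of all tested genes, and 1 lower, against 15.4%. The 6 genes that this added were ADAM22, MMP17, MMP19, ADAMTS7, ADAMTS9 and ADAMTS15. In the authors' deposited table, 36 of the 42 genes have an adjusted p, and 21 of these were higher and 1 lower at 0.05, against 14.9% and 14.8% of its genes. All 16 genes called higher in limma are among those 21.

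The promoters of 4 of these genes are shown because they stand for the families whose values follow: the gene with the smallest adjusted p among the TIMPs (TIMP3), the MMPs (MMP11) and the ADAMs (ADAM8), and MMP8, which had the highest fold. Each is the 250 bases before the RefSeq start on GRCh38.p14, read along the strand of the gene, and positions are counted backwards from that start. TIMP3 is at chr22:32801455-32801704 on the plus strand, MMP11 at chr22:23772599-23772848 on the plus strand, ADAM8 at chr10:133276869-133277118 on the minus strand and MMP8 at chr11:102724955-102725204 on the minus strand. For MMP11 and MMP8 that start lies inside the longer gene span of the GENCODE annotation. Capitals mark the GC box, GGGCGG or its reverse complement CCGCCC, and in MMP8 the TATA motif TATAAA.
TIMP3: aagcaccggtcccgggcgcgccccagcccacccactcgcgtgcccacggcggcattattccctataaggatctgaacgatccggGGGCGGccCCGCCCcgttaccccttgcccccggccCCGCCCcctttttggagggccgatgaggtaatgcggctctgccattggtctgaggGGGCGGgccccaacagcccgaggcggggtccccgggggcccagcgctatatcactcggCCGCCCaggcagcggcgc
MMP11: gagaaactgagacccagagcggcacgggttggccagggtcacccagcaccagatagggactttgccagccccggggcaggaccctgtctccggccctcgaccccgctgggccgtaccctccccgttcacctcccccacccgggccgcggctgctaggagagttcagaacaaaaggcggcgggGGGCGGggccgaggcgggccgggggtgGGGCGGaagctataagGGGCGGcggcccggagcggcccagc
ADAM8: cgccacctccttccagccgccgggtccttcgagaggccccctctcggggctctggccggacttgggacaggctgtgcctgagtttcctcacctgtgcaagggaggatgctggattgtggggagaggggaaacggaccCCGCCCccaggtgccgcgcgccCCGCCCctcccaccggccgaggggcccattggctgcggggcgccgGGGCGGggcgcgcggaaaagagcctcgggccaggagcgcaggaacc
MMP8: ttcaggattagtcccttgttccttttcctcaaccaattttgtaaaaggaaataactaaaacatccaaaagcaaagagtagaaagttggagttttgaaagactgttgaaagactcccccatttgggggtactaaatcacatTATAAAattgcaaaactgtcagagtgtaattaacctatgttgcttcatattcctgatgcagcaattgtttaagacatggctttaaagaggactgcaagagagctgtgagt

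Of the 42 genes, 28 have an entry in the RefSeq promoter table, among them 14 of the 16 called higher. The GC box, a letter match for Sp family binding sites, was present in 13 of these 14 promoters, all but MMP8, and in 9 of the 12 promoters of genes not called. It was present in 53.7% of 22199 promoters of protein-coding genes and in 42.6% of all 35116 promoters, so most genes of these families held it whether called or not. TIMP3 held 5 copies, and MMP11 and ADAM8 held 3 each. MMP8 held TATAAA at -110 and ADAMTSL2 held it at -30, and MMP21 was the only other gene with this motif, which 10.7% of all promoters contain. The AP-1 site TGANTCA occurred only in ADAMTS12, at -84, against 6.57% of all promoters. The cAMP response element TGACGTCA occurred in 0 of 28, against 1.65% of all promoters, and its half-site TGACG in 7 of 28, against 21.2%. Both strands were searched, and the half-site is contained in the full element. These are letter matches in 250 bases and say nothing of binding.

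All 4 TIMPs were called higher in CD104high cells, by 1.22-fold to 2.23-fold, against 12.1% of all tested genes. TIMP3 (ENSG00000100234.11, chr22:32801701-32863043) encodes the inhibitor that stays bound to the matrix and also blocks ADAM17 and several ADAMTS enzymes. It had 3057, 3315 and 3341 normalised counts in CD104high libraries 1 to 3 and 1407, 1445 and 1507 in CD104low libraries 1 to 3. The groups lay far apart, and no library stood away from its group. The log2 fold change of TIMP3 was 1.15 (SE 0.07, adjusted p = 5.36e-05), the smallest adjusted p of the 39 genes. TIMP2 (chr17:78852977-78925387), which inhibits MMPs and also takes part in activating pro-MMP2 on the cell surface, had 34748, 36337 and 36327 in CD104high libraries and 24119, 22268 and 25485 in CD104low libraries. The log2 fold change was 0.58 (SE 0.07, adjusted p = 0.000733), with a level per kb of exon of 6356 in CD104high cells and 4253 in CD104low cells. TIMP2 had the highest level per kb of the families in CD104high cells, and TIMP1, at 5502 in CD104high cells and 4530 in CD104low cells, in CD104low cells. This order depends on the exon lengths used, 5633 bases for TIMP2 and 1541 for TIMP1, which cover all annotated transcripts.

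TIMP1 (chrX:47582313-47586789), a soluble inhibitor of most secreted MMPs, had 8751, 8721 and 7964 in CD104high libraries and 7180, 6485 and 7275 in CD104low libraries. The groups did not overlap, but the log2 fold change was 0.28 (SE 0.07, adjusted p = 0.0202). That call was lost without CD104high 1 (adjusted p = 0.0796), CD104high 2 (0.0789) or CD104low 2 (0.0788), and in limma without its trend (0.0689). TIMP4 (chr3:12153051-12159351), the least widely expressed of the inhibitors, had 277, 279.9 and 279.9 in CD104high libraries and 202, 190.0 and 122 in CD104low libraries. CD104low 3 was the lowest of the 6 libraries. For TIMP4 the log2 fold change was 0.74 (SE 0.20, adjusted p = 0.0253), with 0.0838, 0.0766 and 0.0537 when CD104high 1, 2 or 3 was left out, 0.0583 without both libraries numbered 3 and 0.0582 without the trend. TIMP4 shares 10.3% of its exon bases with SYN2 on the opposite strand, and the strand setting of the counting is not given in the sources used here.

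**Figure D2:**
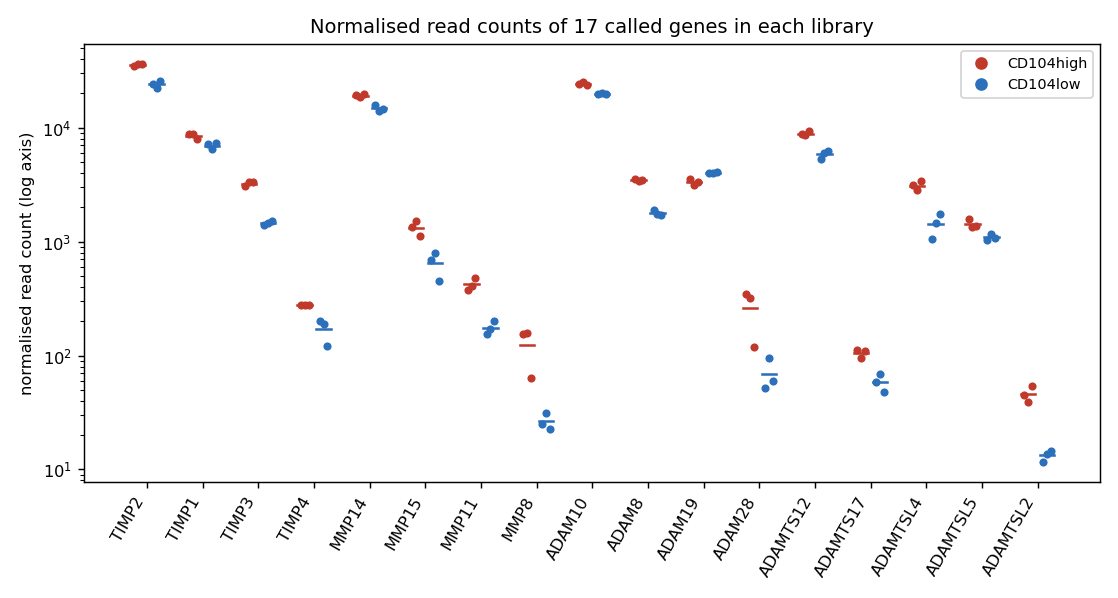
Normalised read count on a log axis (y axis) of the 17 called genes (x axis) in each library, with CD104high in red and left of CD104low in blue; points are libraries 1, 2 and 3 from left to right and horizontal lines are means (n = 3). The red points lie above the blue points in 16 genes and below them in ADAM19.

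Among the 6 membrane-type MMPs, which stay attached to the cell surface, MMP14 and MMP15 were higher in CD104high cells and 4 were not called. Their median log2 fold change was 0.40, and 12.1% of all tested genes were called higher. MMP14 (chr14:22836557-22849027), the cell-surface collagenase that also activates pro-MMP2, had 19233, 18435 and 19672 in CD104high libraries and 15737, 13901 and 14698 in CD104low libraries. The groups did not overlap, and MMP14, the most abundant of the 12 MMPs in the deposited table, was 1.29-fold higher (log2 fold change 0.37, SE 0.07, adjusted p = 0.00459). Per kb of exon, MMP14 reached 4282 in CD104high cells and 3311 in CD104low cells. MMP15 (chr16:58025566-58046901), a close relative of MMP14, had 1357, 1508 and 1119 in CD104high libraries and 696, 797 and 450 in CD104low libraries. Library 3 was the lowest in both groups, yet each group stayed on its own side. For MMP15 the log2 fold change was 1.06 (SE 0.20, adjusted p = 0.00448).

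MMP17, which is held in the membrane by a lipid anchor, had 79.0, 97.3 and 107 in CD104high libraries and 27.2, 49.2 and 80.3 in CD104low libraries. CD104low 3 overlapped the CD104high range, and the gene was not called (log2 fold change 0.96, adjusted p = 0.0800). With the replicate number as a block, its adjusted p was 0.0173, and 0.0130 without CD104low 3. MMP24, known to cut N-cadherin in neurons, had 253, 244 and 315 in CD104high libraries and 166, 159 and 308 in CD104low libraries. Here too CD104low 3 stood apart from CD104low 1 and 2. The adjusted p of MMP24 was 0.250 with all libraries and 0.0168 without CD104low 3, and 18.1% of its exon bases are shared with MMP24OS on the opposite strand. MMP16 was not called (log2 fold change -0.17, adjusted p = 0.461), nor was MMP25, another lipid-anchored enzyme, at 15.5 to 22.7 counts.

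The secreted MMPs held the highest fold of the families. MMP8 (ENSG00000118113.12, chr11:102711795-102727050), the collagenase known from neutrophil granules, had 154, 157 and 63.8 normalised counts in CD104high libraries and 25.2, 31.5 and 22.7 in CD104low libraries. Every CD104high library lay above every CD104low library, with CD104high 3 well below CD104high 1 and 2. The log2 fold change was 2.10 (SE 0.36, adjusted p = 0.00331), at a low level of 36.3 per kb of exon in CD104high cells and 7.70 in CD104low cells. MMP11 (ENSG00000099953.10, chr22:23768226-23784316), also called stromelysin-3 and known from the stroma of breast carcinomas, had 377, 411 and 484 in CD104high libraries and 155, 171 and 200 in CD104low libraries. The groups were well separated (log2 fold change 1.27, SE 0.16, adjusted p = 0.000794), and MMP11 shares 4.2% of its exon bases with CHCHD10 on the opposite strand. CD14, the measured leukocyte marker that was called, averaged 548 in CD104high cells and 248 in CD104low cells. CD79A, the other one measured, averaged 13.8 and 13.2 and was not called (adjusted p = 0.891). PTPRC, CD68, ITGAM, CD3E, LYZ and MS4A1 were not analysed here. All libraries came from cells of a single line. Whether the difference in CD14 bears on the results for MMP8, ADAM8 and ADAM28 was not tested.

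MMP19, a broadly acting secreted enzyme, had 323, 244 and 254 in CD104high libraries and 213, 160 and 203 in CD104low libraries. The groups did not overlap, but the gene was not called (log2 fold change 0.51, adjusted p = 0.0628), and with the block its adjusted p was 0.0181. TMEM198B, on the opposite strand, shares 17.4% of its exon bases. MMP21 had 13.4 to 20.7 in CD104high libraries and 8.73 to 22.7 in CD104low libraries, and MMP23B had 8.89 to 18.9 in CD104high libraries and 11.3 to 15.5 in CD104low libraries. MMP23B and the pseudogene MMP23A are close copies, so the split of their reads is uncertain. MMP1, MMP2 and MMP9 were not analysed here.

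Of the ADAMs with a protease domain, 3 were higher in CD104high cells and 1 was lower, out of 8 tested. The shares over all tested genes were 12.1% higher and 11.3% lower. ADAM8 (ENSG00000151651.16, chr10:133262403-133276868), which activates itself by autocatalysis and is well known on leukocytes, had 3578, 3436 and 3445 in CD104high libraries and 1898, 1749 and 1720 in CD104low libraries. The spread within each group was small against the gap (log2 fold change 0.96, SE 0.07, adjusted p = 0.000104). ADAM10 (chr15:58588807-58749978), the main sheddase of Notch receptors and betacellulin, had 24032, 25342 and 23887 in CD104high libraries and 19577, 20138 and 19729 in CD104low libraries. It differed by 1.23-fold without overlap (log2 fold change 0.30, SE 0.06, adjusted p = 0.00734). ADAM28 (ENSG00000042980.13, on chromosome 8), known from lymphocytes and as a protease of IGFBP3, had 345, 318 and 119 in CD104high libraries and 51.4, 95.5 and 59.7 in CD104low libraries. CD104high 3 lay much closer to the CD104low libraries than CD104high 1 and 2 did. For ADAM28 the log2 fold change was 1.81 (SE 0.39, adjusted p = 0.00940), with an adjusted p of 0.0539 without CD104high 1 and 0.0512 without the trend.

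ADAM19 (chr5:157395534-157575775), a sheddase of neuregulins, was the only gene of the families called lower. It had 3551, 3144 and 3321 in CD104high libraries and 3968, 4007 and 4054 in CD104low libraries, a fall to 0.832 of the CD104low level (log2 fold change -0.27, SE 0.07, adjusted p = 0.0221). The adjusted p of ADAM19 was 0.0928 without CD104high 2, 0.0620 without CD104high 3, 0.0630 without CD104low 2, 0.0888 without both libraries numbered 3 and 0.0598 without the trend. ADAM17, the sheddase of TNF, amphiregulin and TGF-alpha, had 2413, 2518 and 2250 in CD104high libraries and 2454, 2364 and 1937 in CD104low libraries. These ranges overlapped, and ADAM17 was not called (log2 fold change 0.09, adjusted p = 0.532); IAH1 on the opposite strand shares 12.3% of its exon bases. Of the 12 ADAMs, ADAM9 had the highest level per kb of exon, 3683 in CD104high cells and 3354 in CD104low cells. It had 25691, 27350 and 23341 in CD104high libraries and 24101, 24023 and 21430 in CD104low libraries and was not called (log2 fold change 0.13, SE 0.08, adjusted p = 0.259).

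ADAM15, which carries an integrin-binding RGD motif in humans, had 8220, 7316 and 7933 in CD104high libraries and 9639, 8116 and 7695 in CD104low libraries and was not called (adjusted p = 0.403). With the trend of each library with exon length and GC content removed, its log2 fold change was -0.28 (adjusted p = 0.0262). ADAM12 was low, at 77.4 to 86.9 in CD104high libraries and 69.9 to 95.8 in CD104low libraries, and was not called (adjusted p = 0.841). ADAM22, which lacks the zinc-binding motif and serves as the LGI1 receptor of neurons, had 585, 585 and 734 in CD104high libraries and 368, 519 and 557 in CD104low libraries. Its groups did not overlap, and its adjusted p was 0.105, or 0.0222 with the block. ADAM22 led the ADAMs without that motif, with 52.0 per kb of exon in CD104high cells and 39.5 in CD104low cells. ADAM11 had 139, 136 and 101 in CD104high libraries and 150, 157 and 61.8 in CD104low libraries and was not called (adjusted p = 0.817).

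Proteins that steer ADAM10 and ADAM17 to their substrates or to the cell surface, or that bind them, were followed in the same fit. CD9 is listed only as a binding partner and is included in the counts. Of 11 listed, 10 were tested, and 7 were higher and 1 lower in CD104high cells, against 12.1% and 11.3% of all tested genes. With the replicate block 7 were higher and 2 lower, against 17.4% and 15.4%, since TSPAN14 was then lower (log2 fold change -0.19, adjusted p = 0.0867, or 0.0436 with the block). ADAM10 is guided by tetraspanins of the TspanC8 group, and of these TSPAN5 (1.46-fold, adjusted p = 0.00441), TSPAN10 (1.90-fold, 0.0109) and TSPAN15 (1.66-fold, 0.0107) were higher. TSPAN15 had 765, 770.2 and 698 in CD104high libraries and 570.5, 443 and 354 in CD104low libraries, and its adjusted p was 0.0513 without CD104high 1. TSPAN33, of the same group, was lower, with 85.0, 68.5 and 80.3 in CD104high libraries and 142, 110.3 and 165 in CD104low libraries (log2 fold change -0.81, adjusted p = 0.0231). That call was lost without CD104high 1 (0.0570), CD104high 2 (0.0818), CD104low 1 (0.0615) or CD104low 3 (0.0633), and without both libraries numbered 3 (0.0604). The iRhoms RHBDF1 and RHBDF2, which carry ADAM17 to the cell surface, were 1.26-fold (adjusted p = 0.00929) and 1.37-fold (0.00971) higher, RHBDF1 with 0.0566 after removal of the length and GC trend. FRMD8, which stabilises the iRhom complex, was 1.32-fold higher (0.0132; 0.0588 without CD104high 1 and 0.0583 without the trend), and CD9, a tetraspanin reported to bind both enzymes, was 1.54-fold higher (0.000497).

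Transcripts of shed membrane proteins moved both ways. Of 33 listed, 29 were tested, with 8 higher, 5 lower and a median log2 fold change of 0.07, against 12.1% and 11.3% of all tested genes. With the replicate block 10 were higher and 5 lower, against 17.4% and 15.4%, with CXCL16 (adjusted p = 0.0570, or 0.0166 with the block) and PTK7 (0.680, or 0.0395) added. PTK7 had 10299, 12087 and 3958 in CD104high libraries and 9859, 10349 and 2277 in CD104low libraries, with library 3 low in both groups. The ADAM17 substrate AREG (amphiregulin) had 3038, 3960 and 3995 in CD104high libraries and 1676, 1736 and 1844 in CD104low libraries (2.08-fold, adjusted p = 0.000329). EREG, another ligand of the epidermal growth factor receptor, had 365, 483 and 506 in CD104high libraries and 219, 244 and 246 in CD104low libraries (1.89-fold, 0.00315). In both genes the lowest CD104high library was number 1, and the groups did not overlap. TGFA was 1.33-fold higher (0.00843), whereas HBEGF, a ligand of the same receptor, was 0.826 of the CD104low level (0.0369). The HBEGF call was lost without CD104high 1 (0.121), CD104high 2 (0.130), CD104low 2 (0.0640), CD104low 3 (0.102) or both libraries numbered 3 (0.0540), with total-read scaling (0.0542) and without the trend (0.101).

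Of the other shed proteins, the chemokine CX3CL1 was 2.43-fold (adjusted p = 0.00357) and the junction protein F11R 1.75-fold (0.00384) higher in CD104high cells. L1CAM, an adhesion molecule, had 2412, 2032 and 3917 in CD104high libraries and 513, 417 and 1626 in CD104low libraries, with library 3 the highest in both groups (0.0113; 0.0684 without the trend). IL6R, the interleukin-6 receptor, had 3.95, 9.93 and 6.17 in CD104high libraries and 57.2, 65.0 and 35.0 in CD104low libraries, the lowest count of the shed proteins called (log2 fold change -2.83, adjusted p = 0.00190). All its CD104high values lay under 10, so IL6R passed the filter through the CD104low libraries alone. It is counted among the lower genes above. BTC and APP were called higher and SDC4, NOTCH1 and JAM3 lower, and each of these 5 calls was lost when single libraries were left out. These were CD104high 2 or CD104low 2 for SDC4 (adjusted p = 0.0512 and 0.0546) and for NOTCH1 (0.0695 and 0.0619). For JAM3 they were CD104high 2 or 3 and CD104low 1 or 3 (0.0533 to 0.0666), for APP CD104high 1 or 3 and CD104low 1 or 2 (0.0582 to 0.0708), and for BTC any library but CD104low 2 (0.102 to 0.123). Leaving out both libraries numbered 3 ended the calls of SDC4 (0.0515), JAM3 (0.0975) and BTC (0.140), limma without the trend those of NOTCH1 (0.0608), APP (0.0909) and BTC (0.0547), and both edgeR fits that of BTC (0.0626 and 0.0619).

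Of the 10 ADAMTS proteases, 2 were higher in CD104high cells, 8 were not called, and the median log2 fold change was 0.47. Among all tested genes, 12.1% were called higher. ADAMTS12 (chr5:33523535-33892192), which cuts cartilage oligomeric matrix protein, had 8730, 8638 and 9304 in CD104high libraries and 5276, 6047 and 6223 in CD104low libraries. The difference of 1.52-fold was larger than the spread within either group (log2 fold change 0.61, SE 0.08, adjusted p = 0.000876). ADAMTS17 (chr15:99971589-100342005), whose loss causes a Weill-Marchesani-like syndrome in people, had 112, 94.3 and 110.1 in CD104high libraries and 58.2, 68.9 and 47.4 in CD104low libraries. The groups did not overlap (log2 fold change 0.86, SE 0.23, adjusted p = 0.0224), but the adjusted p was 0.0885 without CD104high 1, 0.0639 without CD104high 3, 0.0508 without CD104low 3 and 0.0822 without both libraries numbered 3.

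In all, 4 ADAMTS genes missed the call but showed no overlap between groups or a blocked adjusted p under 0.05. The share of all genes that met this either-or condition without a call was not counted. Over all tested genes, called or not, 19.9% had every CD104high library above every CD104low library. With the block, 17.4% of all tested genes were called higher. ADAMTS15, a versican-cutting enzyme, was the most abundant of the 10 ADAMTS genes per kb of exon. It had 17442, 13651 and 14088 in CD104high libraries and 12487, 9982 and 13269 in CD104low libraries. Its level per kb was 2655 in CD104high cells and 2100 in CD104low cells (log2 fold change 0.34, SE 0.12, adjusted p = 0.0675; 0.0113 with the block). ADAMTS9, which also cuts versican and aggrecan, had 469, 278 and 180.1 in CD104high libraries and 185, 181 and 99.9 in CD104low libraries. CD104high 3 fell within the CD104low range, while each numbered pair had the CD104high library above (adjusted p = 0.0757; 0.00258 with the block). ADAMTS7, the closest relative of ADAMTS12, had 164, 155 and 110.1 in CD104high libraries and 80.5, 109 and 82.4 in CD104low libraries (0.0649; 0.0273 with the block). ADAMTS13, the von Willebrand factor protease, had 71.1, 38.7 and 43.2 in CD104high libraries and 13.6, 25.6 and 37.1 in CD104low libraries (0.0937; 0.0765 with the block).

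ADAMTS6 was not called (log2 fold change 0.34, adjusted p = 0.273), nor was ADAMTS16 (-0.14, 0.489), which had 707 to 817 in CD104high libraries and 713 to 1022 in CD104low libraries. ADAMTS8 stood at 4.96 to 14.4 in CD104high libraries and 3.94 to 18.5 in CD104low libraries. ADAMTS3, a procollagen N-proteinase, varied more between replicate numbers than between groups. It had 338, 327 and 28.8 in CD104high libraries and 403, 279 and 64.9 in CD104low libraries, so the libraries numbered 3 were low in both groups. Its log2 fold change was -0.39 with an SE of 0.90, the widest of the 39 genes (adjusted p = 0.793), and without CD104high 3 it was 0.77 (adjusted p = 0.384). ADAMTS9 had its lowest value in library 3 of each group as well, whereas MMP8 and ADAM28 were low in CD104high 3 against CD104high 1 and 2.

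**Figure D3:**
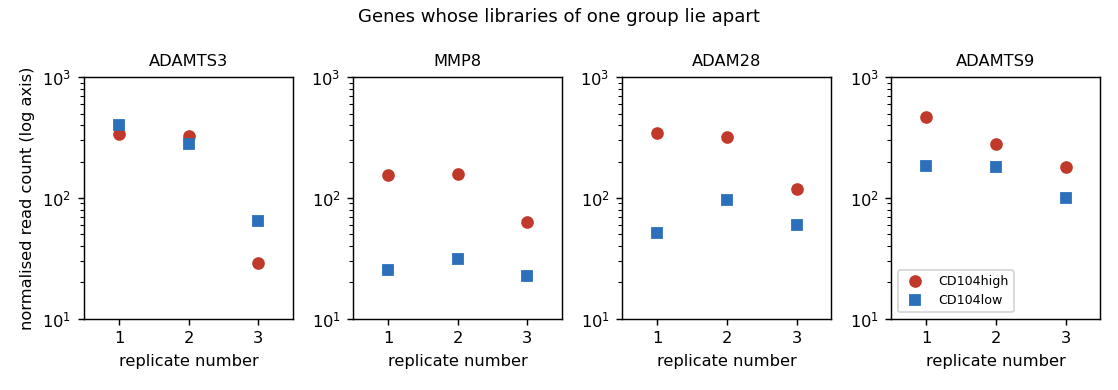
Normalised read count on a log axis (y axis) against replicate number (x axis) for ADAMTS3, MMP8, ADAM28 and ADAMTS9, with CD104high as red circles and CD104low as blue squares. In ADAMTS3 both libraries numbered 3 are low, at 28.8 in CD104high and 64.9 in CD104low; in the other 3 genes the red point lies above the blue point at every number.

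The ADAMTS-like genes, which encode no protease, had the highest median log2 fold change of the 5 families, 0.77. ADAMTSL4 (ENSG00000143382.15, chr1:150549369-150560937), a fibrillin-1 binding protein whose loss displaces the lens in people, had 3114, 2819 and 3386 in CD104high libraries and 1062, 1444 and 1761 in CD104low libraries. All CD104high libraries lay well above the CD104low libraries (log2 fold change 1.15, SE 0.16, adjusted p = 0.00121). Per kb of exon ADAMTSL4 stood at 483 in CD104high cells and 221 in CD104low cells, above ADAMTSL5 (396) in CD104high cells and below it (301) in CD104low cells, and 11.4% of its exon bases are shared with ADAMTSL4-AS1 on the opposite strand. ADAMTSL2 (chr9:133532164-133575519), which binds latent TGF-beta binding protein and is mutated in geleophysic dysplasia, was low, with 45.4, 38.7 and 53.5 in CD104high libraries and 11.6, 13.8 and 14.4 in CD104low libraries. It was 3.27-fold higher (log2 fold change 1.71, SE 0.32, adjusted p = 0.00470). ADAMTS13 lies 72.8 kb from ADAMTSL2 on chromosome 9.

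ADAMTSL5 (chr19:1505018-1513604), which binds heparin and fibrillin microfibrils, had 1591, 1347 and 1364 in CD104high libraries and 1034, 1155 and 1081 in CD104low libraries. CD104high 1 was the highest of the 6, and the log2 fold change was 0.39 (SE 0.10, adjusted p = 0.0168). The adjusted p was 0.0730 without CD104high 1 and 0.0515 after removal of the length and GC trend. ADAMTSL1 had 3075, 2881 and 3568 in CD104high libraries and 2423, 2645 and 3364 in CD104low libraries, with overlapping ranges, and was not called (log2 fold change 0.18, adjusted p = 0.315).

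Matrix proteins that ADAMTS enzymes cut or process, and fibrillin, which ADAMTS-like proteins bind, were tested alongside. Of 17 listed, 10 were tested, with 4 higher and 1 lower in CD104high cells, against 12.1% and 11.3% of all tested genes. With the replicate block 4 were higher and 3 lower, against 17.4% and 15.4%, since COL3A1 (log2 fold change -0.84, adjusted p = 0.0533, or 0.00852 with the block) and COL5A2 (-0.47, 0.0693, or 0.0493) were then lower. FBN1, encoding fibrillin-1, had 9255, 7904 and 9226 in CD104high libraries and 4909, 5786 and 5119 in CD104low libraries (1.67-fold, adjusted p = 0.000627). COL5A1 was 1.90-fold (0.000397), COL1A2 2.82-fold (0.00402) and FN1, encoding fibronectin, 1.73-fold (0.00781; 0.0550 without the trend) higher. COL1A2 had 1329, 1204 and 1835 in CD104high libraries and 371, 424 and 828 in CD104low libraries, with library 3 the highest in each group. VCAN, encoding versican, a classic substrate of ADAMTS9 and ADAMTS15, was low, with 17.8, 11.9 and 8.23 in CD104high libraries and 23.3, 30.5 and 37.1 in CD104low libraries. Its call (log2 fold change -1.23, adjusted p = 0.0485) was lost under each library left out, with adjusted p-values between 0.0559 and 0.134, without both libraries numbered 3 (0.245), with total-read scaling (0.0533), with a pseudocount of 0.1 (0.0502) and in DESeq2 on recovered reads (0.0746).

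Of a mixed list of 10 inhibitors, inducers and clearance genes outside the TIMPs, 7 were tested. In CD104high cells 3 of these were higher and 4 were not called. The shares of all tested genes were 12.1% called higher and 11.3% called lower. Of the 3 genes called, only RECK is taken here as an inhibitor of MMPs. RECK, a membrane-anchored inhibitor of MMPs, had 1333, 1286 and 1457 in CD104high libraries and 751, 863 and 929 in CD104low libraries (1.61-fold, adjusted p = 0.00200). LRP1, the receptor that clears TIMPs and many proteases from the surface, was 1.91-fold higher (0.000447) and cystatin C, encoded by CST3, 1.38-fold higher (0.00121). Of the 5 proprotein convertases tested, PCSK4 alone was called, against 23.4% of all tested genes called in either direction. PCSK4 had 419, 409.9 and 404 in CD104high libraries and 189, 216 and 210.1 in CD104low libraries (2.00-fold, 0.000932). FURIN, the convertase of most MT-MMPs and ADAMs, had 9331, 8793 and 9129 in CD104high libraries and 9833, 9753 and 9970 in CD104low libraries and was not called (log2 fold change -0.12, 0.183). Of the astacins and their enhancers, BMP1, the procollagen C-proteinase, was 1.33-fold higher (0.00856). PCOLCE2, which speeds up procollagen cutting by BMP1, was 0.701 of the CD104low level (0.0466), a call that was lost without CD104high 1, 2 or 3 (0.115, 0.0593 and 0.139) and without CD104low 1 or 2 (0.111 and 0.118). The PCOLCE2 call was also lost without both libraries numbered 3 (0.0906), with total-read scaling (0.0536), with no filter (0.0511), after removal of the length and GC trend (0.0516) and in both edgeR fits (0.0535 and 0.0539).

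Summed per kb of exon within each library, inhibitors and proteases were both higher in CD104high cells. The 4 TIMPs summed to 12730 ± 248 in CD104high cells and 9202 ± 547 in CD104low cells (SD, n = 3 each), a ratio of 1.38. TIMP2 made up 48.4% and TIMP1 45.7% of that sum over the 6 libraries. The 12 MMPs summed to 4915 ± 93.4 in CD104high cells and 3672 ± 197 in CD104low cells, a ratio of 1.34. MMP14 made up 88.4% of that sum over the 6 libraries. The sum leaves out MMP1, MMP2 and MMP9, which were not analysed here. The 6 MMPs outside the membrane-type group summed to 202 ± 9.13 in CD104high cells and 105 ± 5.16 in CD104low cells, a ratio of 1.93. Both MMP sums include MMP23B and the pseudogene MMP23A. The catalytic ADAMs summed to 7805 ± 319 in CD104high cells and 6989 ± 380 in CD104low cells, a ratio of 1.12. The ADAMTS proteases summed to 3828 ± 397 in CD104high cells and 2942 ± 264 in CD104low cells, with ADAMTS15 at 70.2% of the sum over the 6 libraries.

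**Figure D4:**
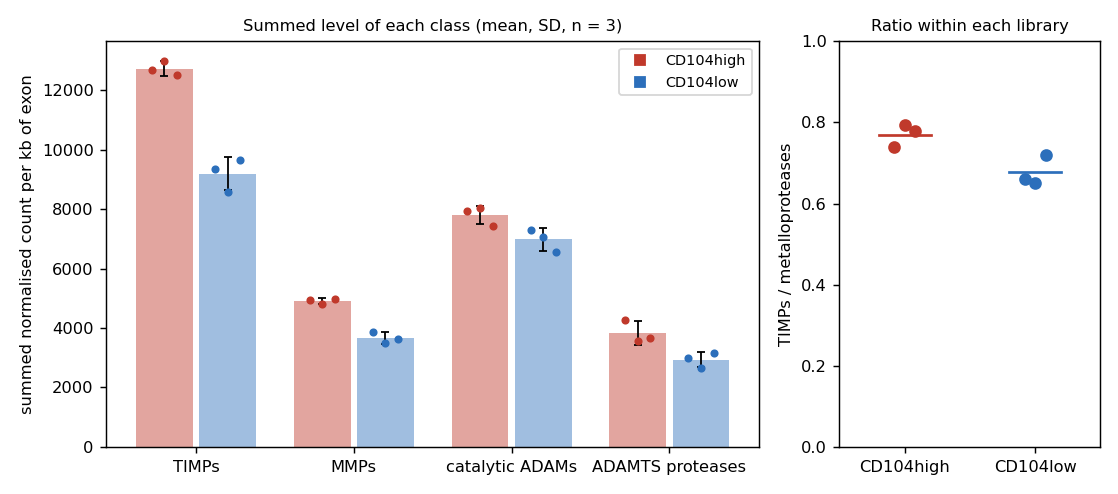
Left, summed normalised count per kb of exon (y axis) of each class (x axis), as bars from 0 for the mean with SD and points for the libraries (n = 3), CD104high in red and CD104low in blue; right, the ratio of summed TIMPs to summed metalloproteases within each library, with means as lines. The ratio lies between 0.739 and 0.793 in CD104high libraries and between 0.650 and 0.721 in CD104low libraries.

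The TIMP sum divided by the sum over MMPs, catalytic ADAMs and ADAMTS proteases was 0.739, 0.793 and 0.778 in CD104high libraries and 0.660, 0.650 and 0.721 in CD104low libraries. The libraries of the groups did not overlap, with means of 0.770 ± 0.028 in CD104high cells and 0.677 ± 0.039 in CD104low cells. CD104low 3 came closest to the CD104high range. Against the MMPs alone the ratio was 2.59 ± 0.10 in CD104high cells and 2.51 ± 0.13 in CD104low cells, and these ranges overlapped. Both ratios leave out MMP1, MMP2 and MMP9, which were not analysed here. No test was made of these sums, since the families were chosen with results of the same data known. Within the families, genes were taken by symbol alone. They measure transcripts, and neither protein, secretion nor activation was measured.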

How the data were processed

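Total RNA was sequenced from sorted MDA-MB-231 cells, 3 CD104high and 3 CD104low libraries. The submitters' processing notes name the build GRCh38.p13 (hg38) and the tools DESeq2 1.30.1, featureCounts 1.5.0, STAR 2.4.0 and FastQC, with no role for any. Whether counting used strand, and with which annotation and filters, is not given in the sources used here. What the authors deposited per library is signal, the reads of each gene over a size factor of the library, with their log2 fold changes, standard errors on the log2 scale, a test statistic (score), p-values and adjusted p-values. Whole reads were recovered from the values, with 100.0% within 0.1 of a whole number; CD104high 2, with a step of 0.993 per read, is less certain, so count tests are alternatives. No value is 0, so genes with a 0 in any library were not analysed here.

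A moderated linear model with a trend of variance on level (limma 3.58.1 in R 4.3.3) was fitted to log2(value + 1) for the 14343 genes that reached 10 in 3 or more libraries, which removed 681, with Benjamini-Hochberg adjustment over all of them and a threshold of 0.05; the fit was tested on simulated counts with known changes. A count test had been planned for raw counts, and this test for normalised values. Every adjusted p comes from limma where no other source is named. Fold changes refer to log2(value + 1), a scale that understates changes at low counts. The labels call the replicates biological without naming separate cultures or sorts, so p-values measure the spread between these libraries, which may be technical.

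Pairing was read from the data: deviations of libraries with the same number correlated at 0.166, 0.317 and 0.477 over genes, each the highest for its number. For number 1 the margin was small. CD104high 2 with CD104low 1 gave 0.129, and CD104high 1 with CD104low 2 gave 0.093. A fit with the number as a block is given beside results whose call it changes. Levels per kb use union exon lengths of GENCODE release 29, and gene coordinates are from that annotation on GRCh38. These lengths join the exons of all annotated transcripts, so rankings and sums per kb depend on them. Which transcripts the cells expressed was not determined. Promoter sequences are RefSeq's, on GRCh38.p14; 14 genes without an entry are not covered. Every gene whose symbol matched was accounted for; those called, TIMP1 to TIMP3 and the highest per kb of each family are given in full. The families and lists were chosen with earlier results of these data known, and the genes within the families by symbol alone. Alternatives covered edgeR 4.0.16, DESeq2 1.42.0 and limma-voom on recovered reads, scaling, pseudocounts of 0.1 and 5, filters, thresholds, each library left out, both libraries numbered 3 left out, the block, and removal of trends with exon length and GC content.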

Additional observations from a re-analysis of the deposited data

How the results depend on the processing

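Of the 17 called genes of the families, 11 kept their call and direction under every alternative they could be fitted in at the threshold of 0.05 (21 each, and 20 for ADAMTSL2, which did not reach the minimum of 50): TIMP2, TIMP3, MMP8, MMP11, MMP14, MMP15, ADAM8, ADAM10, ADAMTS12, ADAMTSL2 and ADAMTSL4. None of the 17 changed sign. The families' count called higher was 16, 11 to 21 with libraries left out, and 7 at a log2 fold change of at least 1. DESeq2 on recovered reads gave 20 higher and 1 lower in the families, and 2006 higher and 1899 lower over all genes. The families' count called lower was 1, 0 to 1 with libraries left out, 0 without both libraries numbered 3, without the trend, at 0.01 and at a log2 fold change of at least 1, and 2 with the length and GC trend removed, with or without the block. Without the block, that removal called 1853 genes higher and 1935 lower over all genes. With the replicate block, the genome-wide counts were 2498 higher and 2208 lower, with 22 and 1 in the families; beyond the 6 named genes the block alone changed no call in the families. Together with removal of the length and GC trends, the block called ADAM9 higher (0.184, adjusted p = 0.0230) and ADAM15 lower (-0.282, 0.00618), and ADAMTS7 (0.0991) and MMP17 (0.0546) were not called. Over all genes, 1730 were higher: 1017 to 1766 with libraries left out (1017 without CD104high 1, 1120 without CD104high 2), 2698 under removed length and GC trends plus the block, 826 at 0.01 and 333 at a log2 fold change of at least 1. Lower were 1625: 799 to 1547 with libraries left out (799 without CD104high 1, 901 without CD104high 2, 1030 without CD104low 2), 936 without the trend, 2545 under removed length and GC trends plus the block, 610 at 0.01 and 35 at a log2 fold change of at least 1; the cause was not tested. Uncalled genes whose log2 fold change turned sign did so with libraries left out: ADAM11 -0.304 to 0.36 (-0.156 without both libraries numbered 3), ADAM12 -0.013 to 0.212, ADAM17 -0.011 to 0.16, ADAMTS16 -0.26 to 0, ADAMTS3 -1.173 to 0.771, ADAMTS8 -0.446 to 0.546, MMP21 -0.14 to 0.501 and MMP23B -0.18 to 0.323 (-0.157 without both libraries numbered 3). With the length and GC trend removed, with or without the block, ADAMTS8 was at -0.03 and MMP23B at -0.248. Depth limits the genes with the fewest reads, such as ADAMTS8, MMP21 and MMP23B.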

Other observations

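The error of TIMP3 differs between sources more than that of almost any other gene. In the authors' deposited table its standard error is 0.316 on the log2 scale, and in limma it is 0.0747, a ratio of 4.23, while the median ratio over all tested genes was 1.06 and 1 gene had a higher ratio. The log2 fold change of TIMP3 in the authors' deposited table is 1.16, close to the 1.15 of limma. DESeq2 on recovered reads gave TIMP3 an adjusted p of 7.6e-39, against 0.00207 in the authors' deposited table. ADAM8 had a ratio of 1.96, MMP8 1.90 and ADAM28 1.56. The cause was not tested.

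Several genes turned on CD104low 3. Without that library, ADAM22 (adjusted p = 0.0491), MMP17 (0.0130), MMP24 (0.0168), ADAMTS13 (0.0361), ADAMTS15 (0.0318) and ADAMTSL1 (0.0483) were called higher in CD104high cells, and ADAMTS17 lost its call (0.0508). The families then had 21 of 39 genes called higher and 1 lower, against 1766 and 1547 of all 14343 tested genes. Without CD104high 3, ADAMTS7 (0.0365) and ADAMTS9 (0.0176) were called higher, and TIMP4 (0.0537), ADAMTS17 (0.0639) and ADAM19 (0.0620) lost their calls.

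Some genes of these families lie close together on a chromosome. ADAMTS8 and ADAMTS15 lie 19981 bases apart on chromosome 11, at mean counts of 11.07 and 15060 in CD104high cells and 11.05 and 11913 in CD104low cells. ADAMTS13, not called, and ADAMTSL2, called higher, lie 72.8 kb apart on chromosome 9.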
